A study of Homo sapiens with 6 samples.

Results

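The SR proteins and the heterogeneous nuclear ribonucleoproteins (hnRNPs) are the main RNA-binding proteins that set the splicing pattern of human pre-mRNA. Their genes were taken as every row of the deposited count table whose symbol starts with SRSF and a digit or with HNRNP, which gave 12 SRSF and 25 HNRNP genes, 37 of 17269 genes. They were compared between shPRSS22 and shCtrl libraries of HCT116, an epithelial line derived from a human colorectal carcinoma, with 3 libraries in each group. The shPRSS22 cells are a knockdown of PRSS22, the gene of a secreted serine protease of the trypsin family, as the hairpin prefix of their name also says. The shCtrl cells are labelled wild type in genotype and named as a hairpin control in their titles. The labels do not give the hairpin sequences, the time after their introduction, the number of clones or whether replicates were separate cultures, so p-values measure only the spread between these libraries, which may be technical. RNA was selected on oligo(dT) beads, and the labels describe no step that marks strand. Whether reads of genes that overlap on opposite strands were told apart is therefore not known.

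The target gene behaved as labelled: PRSS22 stood at 3.09, 3.16 and 2.61 CPM in shPRSS22 replicates 1 to 3, against 10.1, 9.38 and 10.1 CPM in shCtrl replicates 1 to 3 (log2 fold change -1.74, SE 0.135, adjusted p = 4.78e-12). CPM is the estimated count per 1000000 of a library's scaled total over the tested genes, and adjusted p-values are Benjamini-Hochberg values of edgeR's quasi-likelihood test over all 13104 genes tested, with a threshold of 0.05. Libraries held between 14920523 and 15466647 counts, of which the 37 genes took 0.791% to 0.811% in shPRSS22 and 0.870% to 0.876% in shCtrl. The epithelial markers EPCAM, KRT8, KRT18, KRT19 and CDH1 averaged 306 to 1422 CPM, and of the endothelial markers CDH5 had no count in any library, PECAM1 had 1 to 6 and VWF 9 to 24. In shPRSS22 replicate 1, some markers of differentiated intestine stood apart from the other 5 libraries, at low counts. FABP1 had 13 counts there, SLC26A3 had 16 and CEACAM7 had 16, with 0 in each other library. The intestinal markers CDX2, CA2 and KRT20 were present in all 6 libraries. CDX2 had 138 to 168 counts, and CA2 had 680, 699 and 679 in shPRSS22, against 529, 551 and 574 in shCtrl. KRT20 had 12 to 53 counts, most in shPRSS22 replicate 1. These are bulk RNA samples, so fewer cells of a kind and less RNA per cell cannot be told apart.

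SR proteins carry RNA recognition motifs and a tail rich in arginine-serine dipeptides. Phosphorylated by SRPK and CLK kinases, they bind exonic enhancers and help recruit the U1 particle and U2AF to splice sites. The hnRNPs coat nascent transcripts through RNA recognition motifs, KH domains or RGG boxes, and many of them favour exon skipping, so that the balance of SR proteins to hnRNPs, classically of SRSF1 to HNRNPA1, shapes the choice of splice sites. Both families are known to limit their own level through alternative exons or introns that lead the transcript to nonsense-mediated decay. In colorectal carcinoma several of them, SRSF1, SRSF3, SRSF6 and HNRNPA1 among them, have been studied for their part in tumour growth.

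Most HNRNP and SRSF transcripts that passed the threshold were lower in shPRSS22 cells, by small amounts. Of 21 tested HNRNP genes 13 fell, 2 rose and 6 did not pass the threshold. Of 11 tested SRSF genes 5 fell, 1 rose and 5 did not pass. Over all tested genes the background was 19.3% lower and 19.9% higher, 39.1% called in all, whereas 61.9% of tested HNRNP genes and 45.5% of tested SRSF genes fell. Abundant genes were called more often, so the 7334 genes with a mean of at least 25 CPM give a second background, of which 47.7% were called, 21.5% lower and 26.2% higher. The median log2 fold change was -0.10 over HNRNP genes and -0.04 over SRSF genes, against -0.0056 over all tested genes. The HNRNP median ranged between -0.13 and -0.10 over the alternative settings, while the SRSF median was -0.10 without shCtrl replicate 3. The steepest fall was that of HNRNPA1, to 0.81 times the shCtrl level, and the steepest rise that of HNRNPLL, to 1.13 times.

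**Figure D1:**
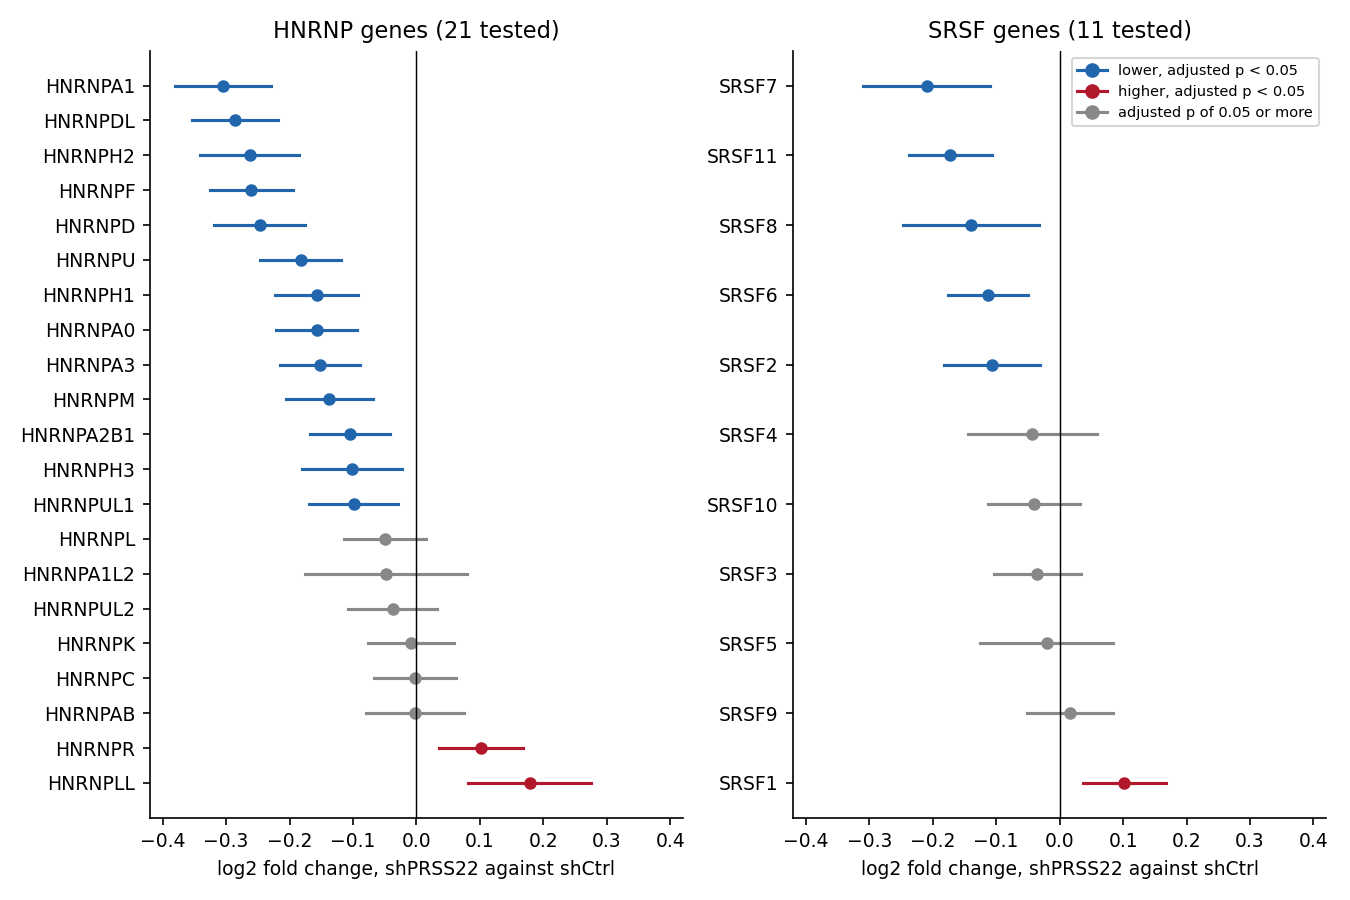
Log2 fold change of each tested HNRNP (left) and SRSF (right) gene in shPRSS22 against shCtrl, with lines for the 95% interval from the standard error and 3 libraries a group. Of the HNRNP genes 13 lie below 0 with an adjusted p under 0.05 and 2 above it, and of the SRSF genes 5 lie below and 1 above.

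In 18 of the 32 tested genes all 3 shPRSS22 libraries lay below all 3 shCtrl libraries, and in 3 they lay above, where the shares over all tested genes were 24.3% and 24.2%. The 5 genes that were not tested were too low in both groups: SRSF12 had at most 1 count in any library, and HNRNPCL1, HNRNPCL2, HNRNPCL3 and HNRNPCL4, intronless relatives of HNRNPC, had at most 12. The authors' deposited table lists 14 of the 37 genes as lower, 11 HNRNP and 3 SRSF, and 3 as higher at a q-value under 0.05. Each of these calls was also made here in the same direction, from the same 6 libraries. The share of all genes past that q-value was not counted, so these counts have no background. Of the 21 genes called here, 15 kept their call under every one of 14 alternative settings, 11 HNRNP and 3 SRSF genes that fell and HNRNPLL. No gene was called in the opposite direction under any of them.

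**Figure D2:**
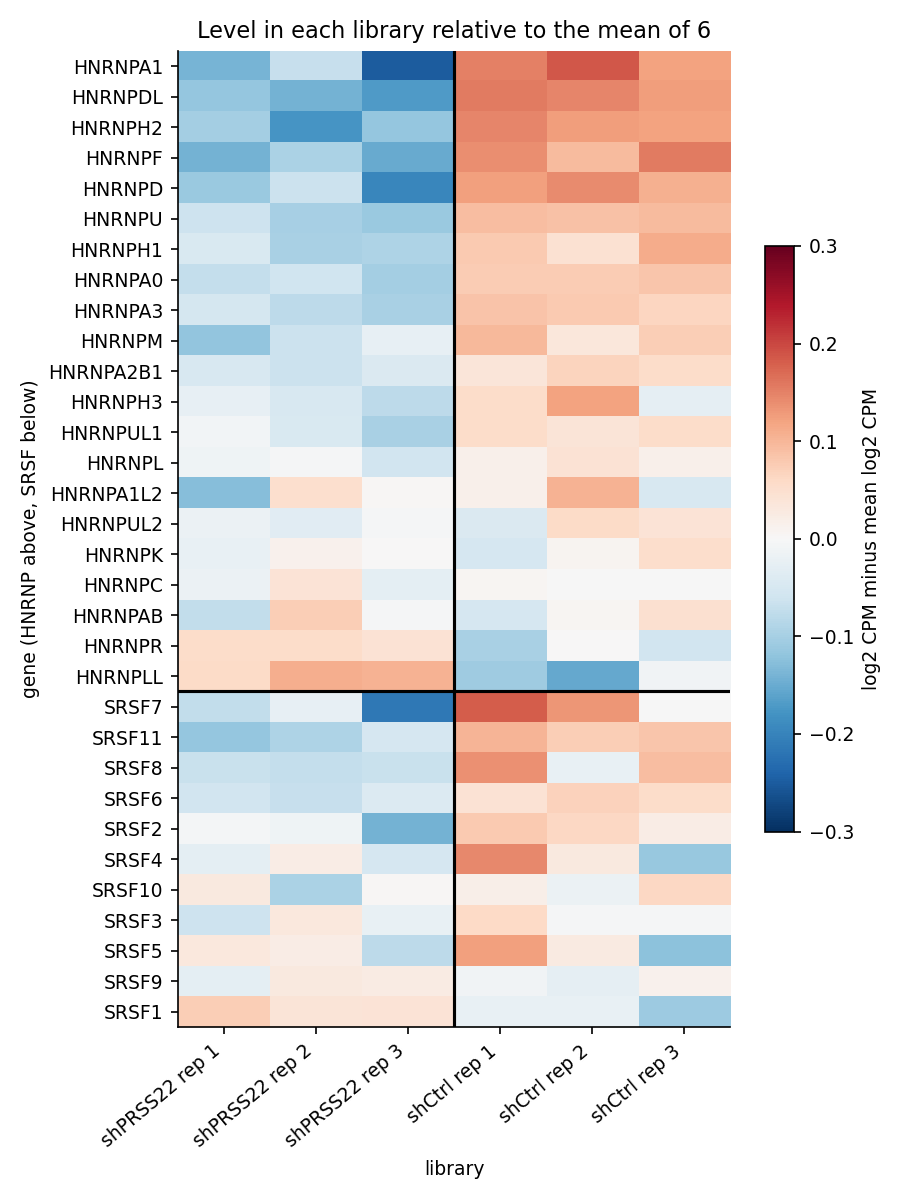
Log2 CPM of each tested gene (rows) in each library (columns) minus its mean over the 6 libraries, with shPRSS22 on the left and shCtrl on the right. The rows from HNRNPA1 to HNRNPA2B1 are blue in every shPRSS22 library and red in every shCtrl library, HNRNPR and HNRNPLL show the reverse in most libraries, and the rows of SRSF4 and SRSF5 vary as much within a group as between groups.

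The A/B group, the core proteins of hnRNP particles, fell in 4 of 5 members. HNRNPA1, which promotes exon skipping and the use of distal splice donors, stood at 1094, 1148 and 1013 CPM in shPRSS22 replicates 1 to 3, against 1339, 1372 and 1311 CPM in shCtrl replicates 1 to 3. Its groups did not overlap, although shPRSS22 replicate 3 was the lowest of its own group (log2 fold change -0.30, SE 0.0389, adjusted p = 1.82e-07). Its close relative HNRNPA2B1, which encodes the A2 and B1 isoforms, stood at 432, 428 and 434 CPM in shPRSS22, against 458, 468 and 464 CPM in shCtrl. The change was smaller (log2 fold change -0.10, SE 0.0321, adjusted p = 0.00964), with no overlap. HNRNPA3 stood at 419.8, 413 and 407 CPM in shPRSS22, against 462, 459.9 and 456 CPM in shCtrl (log2 fold change -0.15, SE 0.0323, adjusted p = 0.000325). HNRNPA0, an intronless member that binds AU-rich elements in mRNA, stood at 228, 230.2 and 224 CPM in shPRSS22, against 253, 253 and 254 CPM in shCtrl (log2 fold change -0.16, SE 0.0324, adjusted p = 0.000238). In both genes the groups stood apart. HNRNPA1L2, a near-identical copy of HNRNPA1, stood at 26.2, 29.6 and 28.7 CPM in shPRSS22, against 28.9, 30.8 and 27.7 CPM in shCtrl, overlapping groups (log2 fold change -0.05, 95% interval -0.18 to 0.08). HNRNPA1 and HNRNPA1L2 can share reads with each other and with the 74 HNRNPA1 pseudogenes named in GENCODE 29. The estimated counts of both genes carried decimals in all 6 libraries, so the split between them is less certain.

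Proteins of the D group bind AU-rich elements and act on mRNA decay as well as on splicing. HNRNPD, also known as AUF1, stood at 148, 153 and 139.6 CPM in shPRSS22 replicates 1 to 3, against 174, 176 and 172 CPM in shCtrl replicates 1 to 3 (log2 fold change -0.25, SE 0.0365, adjusted p = 2.11e-06). HNRNPDL, its nearest relative, stood at 145, 143 and 139.8 CPM in shPRSS22, against 175, 174 and 172 CPM in shCtrl and had a fall next in size to that of HNRNPA1 (log2 fold change -0.29, SE 0.0345, adjusted p = 5.62e-08). For both genes every shPRSS22 library lay below every shCtrl library. The start sites of HNRNPD and HNRNPDL lie 56.2 kb apart on the minus strand of chromosome 4. HNRNPAB, the third member, stood at 130.1, 144 and 136 CPM in shPRSS22, against 132, 137 and 141 CPM in shCtrl, with overlapping groups (log2 fold change -0.0019, 95% interval -0.08 to 0.08).

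The F/H group binds runs of guanines near exons, where its proteins can enhance or silence exon use. All 4 members fell. HNRNPF stood at 219, 226 and 217 CPM in shPRSS22 replicates 1 to 3, against 266, 258 and 269 CPM in shCtrl replicates 1 to 3 (log2 fold change -0.26, SE 0.0333, adjusted p = 1.66e-07). HNRNPH2, an X-linked relative of HNRNPH1, stood at 88.2, 83.7 and 87.3 CPM in shPRSS22, against 105, 103 and 103 CPM in shCtrl (log2 fold change -0.26, SE 0.0398, adjusted p = 3.14e-06), and 5 of its 6 counts carried decimals. HNRNPH1 stood at 340.1, 328 and 329 CPM in shPRSS22, against 371, 362 and 379 CPM in shCtrl (log2 fold change -0.16, SE 0.0331, adjusted p = 0.000295). These 3 genes had no overlap between groups. HNRNPH3 stood at 112, 110.3 and 108 CPM in shPRSS22, against 118, 124 and 112 CPM in shCtrl, and here shPRSS22 replicate 1 and shCtrl replicate 3 overlapped (log2 fold change -0.10, adjusted p = 0.0439). HNRNPH3 lost its call in DESeq2 and without any one of shPRSS22 replicates 1 to 3 or shCtrl replicates 1 and 2, with adjusted p between 0.0154 and 0.281 over the alternatives, and its log2 fold change was -0.065 without shCtrl replicate 2.

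HNRNPU, also known as scaffold attachment factor A, binds chromatin and nuclear RNA, and was the clearest of the U group, which share a SAP domain. It stood at 519, 505 and 501 CPM in shPRSS22 replicates 1 to 3, against 578, 575 and 578 CPM in shCtrl replicates 1 to 3 (log2 fold change -0.18, SE 0.0325, adjusted p = 3.70e-05), with shCtrl libraries nearly equal and shPRSS22 libraries all lower. HNRNPUL1, implicated with HNRNPUL2 in the DNA damage response, stood at 146, 142 and 137 CPM in shPRSS22, against 152, 151 and 153 CPM in shCtrl (log2 fold change -0.10, SE 0.0357, adjusted p = 0.0265). It lost its call in DESeq2, without shPRSS22 replicate 3 and without any one shCtrl library, with adjusted p between 0.0136 and 0.114 over the alternatives. HNRNPUL2 stood at 159, 157 and 161 CPM in shPRSS22, against 156, 168 and 166 CPM in shCtrl, with overlap (log2 fold change -0.04, 95% interval -0.11 to 0.03). HNRNPM, which competes with the epithelial factor ESRP1 at some exons, stood at 176, 183 and 188 CPM in shPRSS22, against 204, 196 and 201 CPM in shCtrl (log2 fold change -0.14, SE 0.0348, adjusted p = 0.00207), without overlap.

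Promoter windows of 250 bases before to 50 after the start site were taken from RefSeq on GRCh38.p14, where 34 of the 37 genes had an entry, 30 of them tested. HNRNPA1, the gene with the steepest fall, and SRSF2 had no entry, so the shares below leave them out. They are shown because several members that fell hold the palindromic E-box CACGTG, a site that MYC and the USF and MiT factors can bind: 7 of 16 fallen genes with an entry, 43.8%, 0 of 3 that rose and 0 of 11 that did not pass. The shares were 14.6% of all 2064 genes that fell, 12.5% of all 10711 tested genes with an entry and 13.5% of those with at least 20 CG dinucleotides in a window. CACGTG reads the same on both strands, and a gene counted if any of its windows held it, so genes with several start sites had more chances. Counted by window, it was in 28.6% of 28 windows of the fallen members and in 7.26% of all 35116 windows of the table. Those 35116 windows include genes that were not tested and are poorer in CG dinucleotides, which the E-box contains. Their median was 14 CG per window, against 28 in windows of the fallen members. The pattern was noticed in these data and was not tested, and a match is no evidence of binding. TGACNNNGC, the core of the antioxidant response element, was sought on both strands and was in a window of 2 of the 16 fallen genes (12.5%), against 19.4% of all tested genes. The TOP motif, a C at the start site followed by 4 pyrimidines, searched on the gene's strand, was in 2 of 44 windows of tested members (4.55%), against 4.07% of all windows. The E-box starts 27 bases before the start site in HNRNPD (chr4:82373942-82374241, minus strand), 156 before it in the first of the HNRNPDL windows that hold it (chr4:82430176-82430475, minus), 42 before it in HNRNPM (chr19:8444725-8445024, plus), and 42 and 9 before it in HNRNPH2 (chrX:101407972-101408271, plus). The remaining holders are HNRNPA3, HNRNPH3 and HNRNPUL1. Of these, HNRNPH3 and HNRNPUL1 did not keep their call under all 14 alternatives, and neither held the E-box in every window. SRSF1, which rose, has no E-box in its window (chr17:58007197-58007496, minus) and is shown for contrast. Capitals mark the E-box in the first 4 sequences, each 5′ to 3′, and in SRSF1 the TGACNNNGC match, which starts 150 bases before its start site.
HNRNPD: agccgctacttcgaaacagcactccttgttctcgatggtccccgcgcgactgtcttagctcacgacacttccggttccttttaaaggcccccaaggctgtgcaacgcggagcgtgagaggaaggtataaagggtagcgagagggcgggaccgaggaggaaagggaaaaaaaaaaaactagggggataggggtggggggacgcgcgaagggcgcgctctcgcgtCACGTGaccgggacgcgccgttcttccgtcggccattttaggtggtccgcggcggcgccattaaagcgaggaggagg
HNRNPDL: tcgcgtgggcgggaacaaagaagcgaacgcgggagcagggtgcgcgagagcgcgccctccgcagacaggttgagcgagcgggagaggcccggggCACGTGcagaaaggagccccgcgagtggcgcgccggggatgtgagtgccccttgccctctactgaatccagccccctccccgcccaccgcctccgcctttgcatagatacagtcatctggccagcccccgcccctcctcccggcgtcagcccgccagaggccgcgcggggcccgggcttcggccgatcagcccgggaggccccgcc
HNRNPM: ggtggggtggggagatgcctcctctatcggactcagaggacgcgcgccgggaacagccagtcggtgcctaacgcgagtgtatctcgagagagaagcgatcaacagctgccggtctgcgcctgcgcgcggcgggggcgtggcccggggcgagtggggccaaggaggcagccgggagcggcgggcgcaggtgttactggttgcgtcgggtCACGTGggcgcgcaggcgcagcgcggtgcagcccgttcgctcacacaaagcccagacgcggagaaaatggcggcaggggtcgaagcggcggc
HNRNPH2: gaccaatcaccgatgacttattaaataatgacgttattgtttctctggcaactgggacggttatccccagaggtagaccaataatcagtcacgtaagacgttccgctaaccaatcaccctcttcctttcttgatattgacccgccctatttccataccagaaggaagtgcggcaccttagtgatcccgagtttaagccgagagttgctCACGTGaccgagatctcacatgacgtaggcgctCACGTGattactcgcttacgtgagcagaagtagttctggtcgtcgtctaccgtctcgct
SRSF1: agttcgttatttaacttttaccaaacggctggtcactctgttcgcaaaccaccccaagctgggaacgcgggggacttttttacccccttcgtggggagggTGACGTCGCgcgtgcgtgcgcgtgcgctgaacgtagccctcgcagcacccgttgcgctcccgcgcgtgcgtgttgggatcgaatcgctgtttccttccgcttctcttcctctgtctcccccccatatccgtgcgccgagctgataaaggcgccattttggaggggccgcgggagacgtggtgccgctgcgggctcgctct

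The abundant hnRNPs C, K and L did not pass the threshold, and their intervals, which reflect only the spread between these libraries, include 0. HNRNPC, which binds uridine tracts as a tetramer, stood at 516, 538 and 512 CPM in shPRSS22 replicates 1 to 3, against 525, 522 and 522 CPM in shCtrl replicates 1 to 3 (log2 fold change -0.0024, 95% interval -0.07 to 0.06). HNRNPK, a KH-domain protein that binds cytosine-rich RNA, stood at 804, 824 and 817 CPM in shPRSS22, against 789, 822 and 847 CPM in shCtrl (log2 fold change -0.008, 95% interval -0.08 to 0.06). In both genes the groups overlapped, with HNRNPK lowest and highest in shCtrl libraries. HNRNPL, which binds CA repeats, stood at 207, 208 and 200.4 CPM in shPRSS22, against 211, 215 and 211 CPM in shCtrl, all shPRSS22 values just below all shCtrl values (log2 fold change -0.05, 95% interval -0.11 to 0.02, adjusted p = 0.248). Its paralog HNRNPLL, known for switching CD45 exons in T cells, went the other way and rose, at 57.3, 59.5 and 59.2 CPM in shPRSS22, against 51.2, 49.6 and 54.7 CPM in shCtrl (log2 fold change 0.18, SE 0.0495, adjusted p = 0.00443). HNRNPR, a paralog of SYNCRIP, also rose, at 235, 234 and 232 CPM in shPRSS22, against 211, 226 and 217 CPM in shCtrl (log2 fold change 0.10, SE 0.0338, adjusted p = 0.0156). The HNRNPR call did not hold once shCtrl replicate 1 was removed (log2 fold change 0.080), with adjusted p between 0.00585 and 0.115 over the alternatives.

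**Figure D3:**
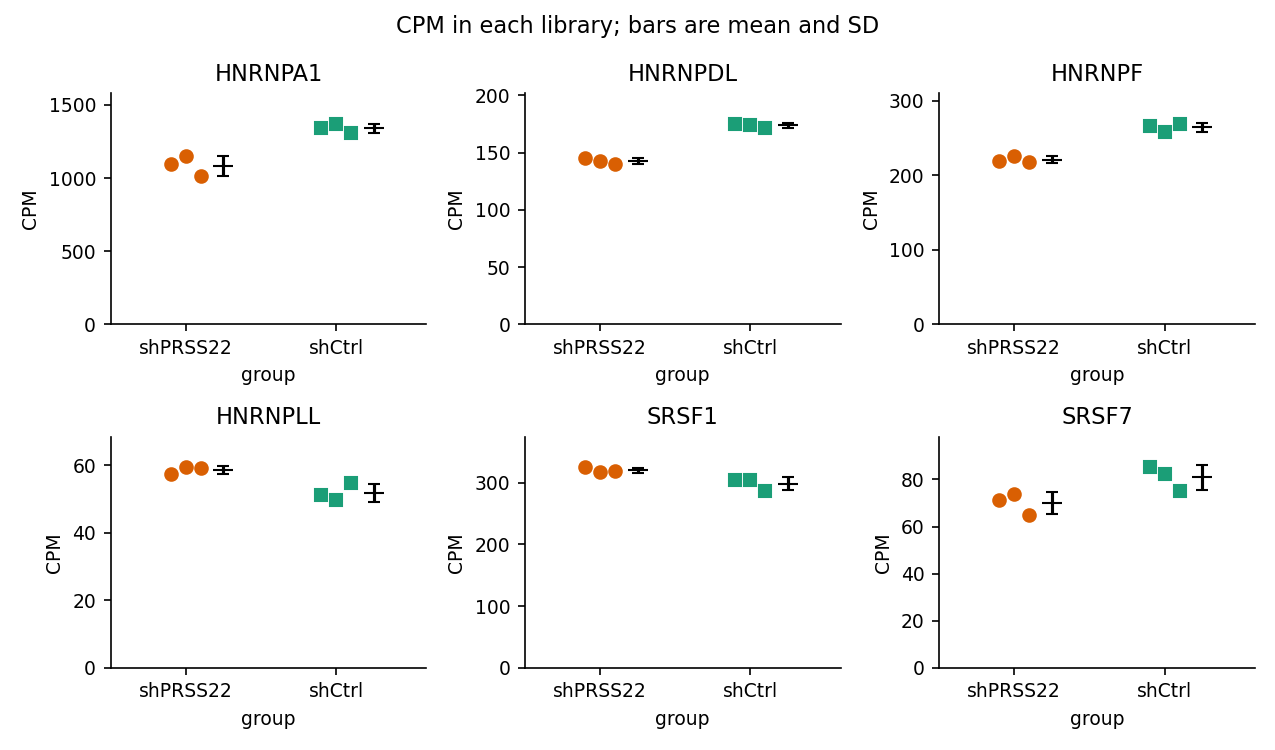
CPM of HNRNPA1, HNRNPDL, HNRNPF, HNRNPLL, SRSF1 and SRSF7 in each of 3 shPRSS22 libraries (circles) and 3 shCtrl libraries (squares), with the mean and SD beside them and axes from 0. HNRNPA1, HNRNPDL, HNRNPF and SRSF7 lie lower and HNRNPLL and SRSF1 higher in every shPRSS22 library, and the gap is narrow for SRSF7, HNRNPLL and SRSF1.

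SRSF1, the founding SR protein, opponent of HNRNPA1 at splice donors and a proto-oncogene product, was the SRSF gene that rose. It stood at 325, 317 and 318 CPM in shPRSS22 replicates 1 to 3, against 304, 304 and 286 CPM in shCtrl replicates 1 to 3 (log2 fold change 0.10, SE 0.0337, adjusted p = 0.0155), a small difference with no overlap. SRSF1 lost its call without shPRSS22 replicate 1 (log2 fold change 0.092), the library with FABP1, SLC26A3 and CEACAM7 counts, and without shCtrl replicate 3 (0.076). Its adjusted p was between 0.00445 and 0.12 over the alternatives. SRSF7, a zinc knuckle protein also known as 9G8 that couples splicing to mRNA export, had the lowest fold change of the SRSF genes. It stood at 71.4, 73.8 and 64.7 CPM in shPRSS22 replicates 1 to 3, against 85.3, 82.4 and 75.1 CPM in shCtrl replicates 1 to 3 (log2 fold change -0.21, SE 0.0511, adjusted p = 0.00178), and its lowest shCtrl and highest shPRSS22 values were close. SRSF11, also known as p54, stood at 196, 199 and 205 CPM in shPRSS22, against 228, 224 and 225 CPM in shCtrl (log2 fold change -0.17, SE 0.0332, adjusted p = 0.000106), and SRSF6 at 294, 292 and 297 CPM in shPRSS22, against 315, 321 and 318 CPM in shCtrl (log2 fold change -0.11, SE 0.0321, adjusted p = 0.00555). Both were clear of overlap, and with SRSF7 they are the SRSF genes whose call held under all 14 alternatives.

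The other SRSF genes called lower were less firm. SRSF2, also known as SC35, stood at 137, 137 and 125 CPM in shPRSS22, against 145, 144 and 139.8 CPM in shCtrl (log2 fold change -0.11, SE 0.0387, adjusted p = 0.0283). Its call was lost in DESeq2 and without shPRSS22 replicate 3, shCtrl replicate 1 or shCtrl replicate 2 (adjusted p between 0.00974 and 0.205 over the alternatives), and its log2 fold change was -0.063 without shPRSS22 replicate 3. SRSF8, a relative of SRSF2, stood at 40.3, 40.2 and 40.3 CPM in shPRSS22, against 46.4, 41.6 and 45.0 CPM in shCtrl (log2 fold change -0.14, SE 0.0547, adjusted p = 0.042). It lost its call in DESeq2 and without any one library other than shCtrl replicate 2 (adjusted p between 0.0182 and 0.199 over the alternatives). Without shPRSS22 replicate 3 or shCtrl replicate 1, 3 SRSF genes fell in place of 5. SRSF2 counts carried decimals in all 6 libraries.

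Among SRSF genes that did not pass, SRSF9 stood at 159, 165 and 165 CPM in shPRSS22, against 161, 159 and 163 CPM in shCtrl (95% interval -0.05 to 0.08 for the log2 fold change). SRSF3, the smallest SR protein and an adaptor for mRNA export, stood at 191, 204 and 197 CPM in shPRSS22, against 208, 199 and 199.5 CPM in shCtrl (95% interval -0.10 to 0.03). SRSF10, which represses splicing when dephosphorylated after heat shock, stood at 182, 166 and 178 CPM in shPRSS22, against 179.9, 176 and 186 CPM in shCtrl (95% interval -0.11 to 0.03). The groups overlapped in all 3. SRSF5 and SRSF4 varied as much among shCtrl libraries as between groups, at 202, 201 and 187 CPM in shPRSS22, against 216, 202 and 182 CPM in shCtrl for SRSF5 and at 65.4, 67.8 and 64.5 CPM in shPRSS22, against 73.8, 68.1 and 61.8 CPM in shCtrl for SRSF4. For both genes shCtrl replicate 1 was the highest and shCtrl replicate 3 the lowest of all 6 libraries, and their intervals, -0.13 to 0.08 and -0.14 to 0.06, include 0.

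Levels of different genes were compared in the authors' deposited TPM, which are per transcript length. HNRNPA1, at a mean of 586 TPM over the 6 libraries, was the most abundant, followed by HNRNPK at 513, HNRNPC at 332, HNRNPA2B1 at 309 and SRSF9 at 308 TPM. HNRNPA2B1 and SRSF9 did not differ beyond the spread of their libraries, since SRSF9 ranged from 299 to 317 TPM and HNRNPA2B1 from 289 to 322. HNRNPA1 alone made up 11.7% of the TPM of the 37 genes. Of the SRSF genes, SRSF9 and SRSF5 (256 TPM) stood above the others, and SRSF8 (16.9 TPM) was the lowest of those tested. Summed over all 25 HNRNP genes the level was 3532 ± 45.4 TPM in shPRSS22 and 3816 ± 33.1 TPM in shCtrl (SD, n = 3 each), 7.44% lower, with no overlap. Summed over all 12 SRSF genes it was 1304 ± 18.7 TPM in shPRSS22 and 1328 ± 32.8 TPM in shCtrl, and the groups overlapped. By class, the summed TPM of the A/B group was 13.1% lower and that of the F/H group 11.8% lower, at 1034 ± 23.0 TPM in shPRSS22 and 1190.4 ± 6.21 TPM in shCtrl for A/B and 593 ± 16.5 TPM in shPRSS22 and 673 ± 11.0 TPM in shCtrl for F/H. HNRNPA1, whose counts carried decimals, made up most of the A/B difference, at means of 526 TPM in shPRSS22 and 646 TPM in shCtrl.

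**Figure D4:**
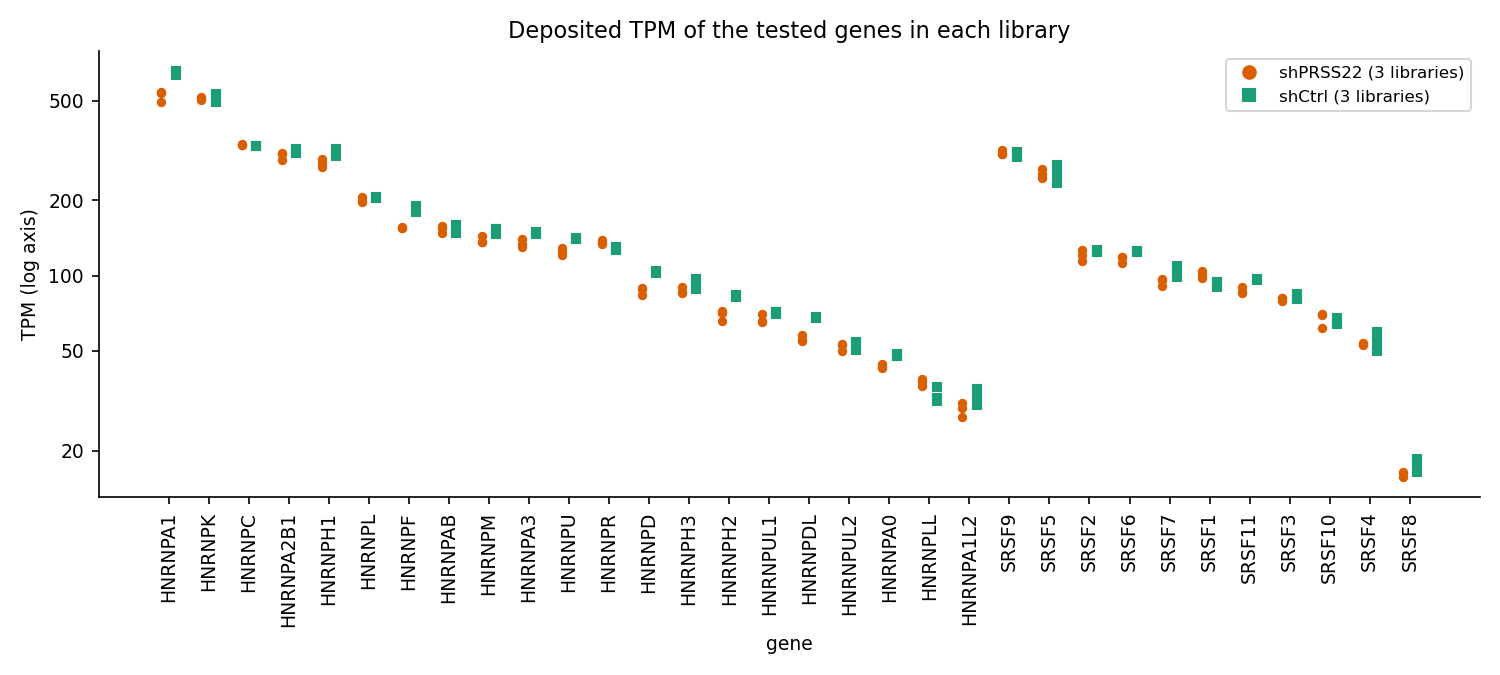
Deposited TPM of the 32 tested genes in each shPRSS22 library (circles) and shCtrl library (squares), on a log axis, ordered by mean level within the HNRNP and SRSF genes. Levels run from a mean of 16.9 TPM for SRSF8 to 586 TPM for HNRNPA1, and differences between groups are small beside those between genes.

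To set members against one another within a library, ratios of TPM were taken for 8 pairs chosen after the values were seen. They are given as a description. An exact two-sided permutation test of 3 libraries against 3 was run for each pair, but it cannot go below p = 0.1. Since the choice of pairs also followed the values, its outcome is not used. The ratio of SRSF1 to HNRNPA1 was 0.193, 0.180 and 0.205 in shPRSS22, against 0.147, 0.144 and 0.142 in shCtrl (log2 difference 0.42). All shPRSS22 values lay above all shCtrl values. The ratio of HNRNPA1 to HNRNPA2B1 was 1.76, 1.88 and 1.61 in shPRSS22, against 2.04, 2.12 and 1.97 in shCtrl, lower in each shPRSS22 library (log2 difference -0.23). Likewise HNRNPD to HNRNPAB was 0.601, 0.560 and 0.540 in shPRSS22, against 0.695, 0.679 and 0.641 in shCtrl (log2 difference -0.24) and HNRNPF to HNRNPC 0.468, 0.461 and 0.463 in shPRSS22, against 0.564, 0.545 and 0.573 in shCtrl (-0.27). HNRNPLL to HNRNPL was 0.182, 0.195 and 0.185 in shPRSS22, against 0.159, 0.153 and 0.176 in shCtrl (log2 difference 0.21), and HNRNPR to SYNCRIP was 1.18, 1.18 and 1.18 in shPRSS22, against 1.01, 1.06 and 1.01 in shCtrl (0.20). For HNRNPH2 to HNRNPH1 the log2 difference was -0.11. For SRSF7 to SRSF3 it was -0.13, and there the groups overlapped narrowly.

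Counts per gene add up all transcripts of a gene, including those routed to decay, and the present data do not separate them. GENCODE 29 lists at least 1 nonsense-mediated decay transcript for 24 of the 32 tested genes (75.0%), against 42.7% of all tested protein-coding genes it names. Among the members the share was 72.2% of those that fell, 72.7% of those that did not pass and 3 of 3 that rose. HNRNPU, with 9, and SRSF7, with 6, had the most such transcripts. Exons of 12 of the 32 tested genes overlap exons of another gene on the opposite strand in GENCODE 29, and their counts may hold reads of those neighbours. The pairs are HNRNPU with COX20, HNRNPA2B1 with CBX3, HNRNPAB with PHYKPL, HNRNPH3 with RUFY2, HNRNPUL1 with TGFB1, SRSF2 with MFSD11 and SRSF9 with GATC. HNRNPA3, HNRNPD, HNRNPK, HNRNPM and SRSF1 overlap genes that carry only clone-based names. HNRNPA1, HNRNPDL, HNRNPF, HNRNPH1, HNRNPH2, HNRNPLL, SRSF6, SRSF7 and SRSF11 have no such overlap.

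Genes that act with the SR proteins and hnRNPs were followed in 10 lists, which held 125 tested genes. Of these 30 fell (24.0%) and 14 rose (11.2%), with a median log2 fold change of -0.05, against 19.3% lower and 19.9% higher over all tested genes. Proteins counted among the hnRNPs under other symbols fell in 5 of 8, and 0 rose. CIRBP, the cold-inducible RNA-binding protein, fell most, at 92.2, 98.9 and 94.6 CPM in shPRSS22, against 153, 148 and 155 CPM in shCtrl (log2 fold change -0.67, SE 0.0384, adjusted p = 2.58e-15), with no overlap. RBMX, at a log2 fold change of -0.22, SYNCRIP (-0.15), PCBP2 (-0.14) and PCBP1 (-0.10) fell too. SR-related splicing proteins fell in 9 of 20 and rose in 1. CCNL2 (-0.32) and LUC7L (-0.29), a cyclin L and a U1-associated factor, fell most, and ZRANB2 (0.09) rose.

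Of 8 tested kinases that phosphorylate SR proteins 1 rose and 1 fell (12.5% each), against 19.9% higher and 19.3% lower over all tested genes. SRPK1 stood at 124, 122 and 123 CPM in shPRSS22, against 122, 124 and 125 CPM in shCtrl and CLK1 at 53.3, 50.5 and 51.7 CPM in shPRSS22, against 55.0, 52.0 and 49.4 CPM in shCtrl, with log2 fold changes of -0.0083 and -0.0076. SRPK2, whose counts carried decimals in all 6 libraries, rose (0.14) and CLK2 fell (-0.25). TNPO1, transportin 1, the nuclear import receptor of HNRNPA1 and related hnRNPs, rose, at 292, 296 and 321 CPM in shPRSS22, against 242, 239.6 and 253 CPM in shCtrl (log2 fold change 0.31, SE 0.0365, adjusted p = 4.01e-08). TNPO3, the import receptor of SR proteins, stood at 75.4, 67.3 and 76.1 CPM in shPRSS22, against 71.2, 68.3 and 75.1 CPM in shCtrl (log2 fold change 0.03, 95% interval -0.07 to 0.12).

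The counts of core spliceosome and decay genes stand beside a background of 19.3% lower and 19.9% higher over all tested genes, and none is read as particular to its list. Log2 fold changes stand in parentheses. In the tri-snRNP and catalytic list 3 of 20 fell and 4 rose, with PRPF31 (-0.17) and PRPF8 (-0.16) lower and PLRG1 (0.26) and BUD31 (0.22) higher. For branch point and acceptor recognition 2 of 13 fell, SF3B3 (-0.25) and SF1 (-0.24), and 2 rose, SF3B6 (0.27) and PHF5A (0.17). Among U1 and Sm protein genes SNRPE (-0.27) and SNRPD1 (-0.13) fell and SNRPG (0.22) rose, of 12. Nonsense-mediated decay factors fell in 1 of 10, UPF3A (-0.27), and exon junction genes in 1 of 5, RBM8A (-0.11), with 0 higher in either list. Of 26 other splicing regulators 6 fell and 4 rose. QKI, a STAR-family regulator of exons and circular RNAs, rose to 70.1 ± 2.18 CPM in shPRSS22, against 48.3 ± 1.49 CPM in shCtrl (SD, n = 3 each; log2 fold change 0.54, adjusted p = 1.01e-10), and the epithelial regulator ESRP1 rose by 0.19 on the log2 scale. KHDRBS3 (-0.36) and TIA1 (-0.33) fell most there.

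**Figure D5:**
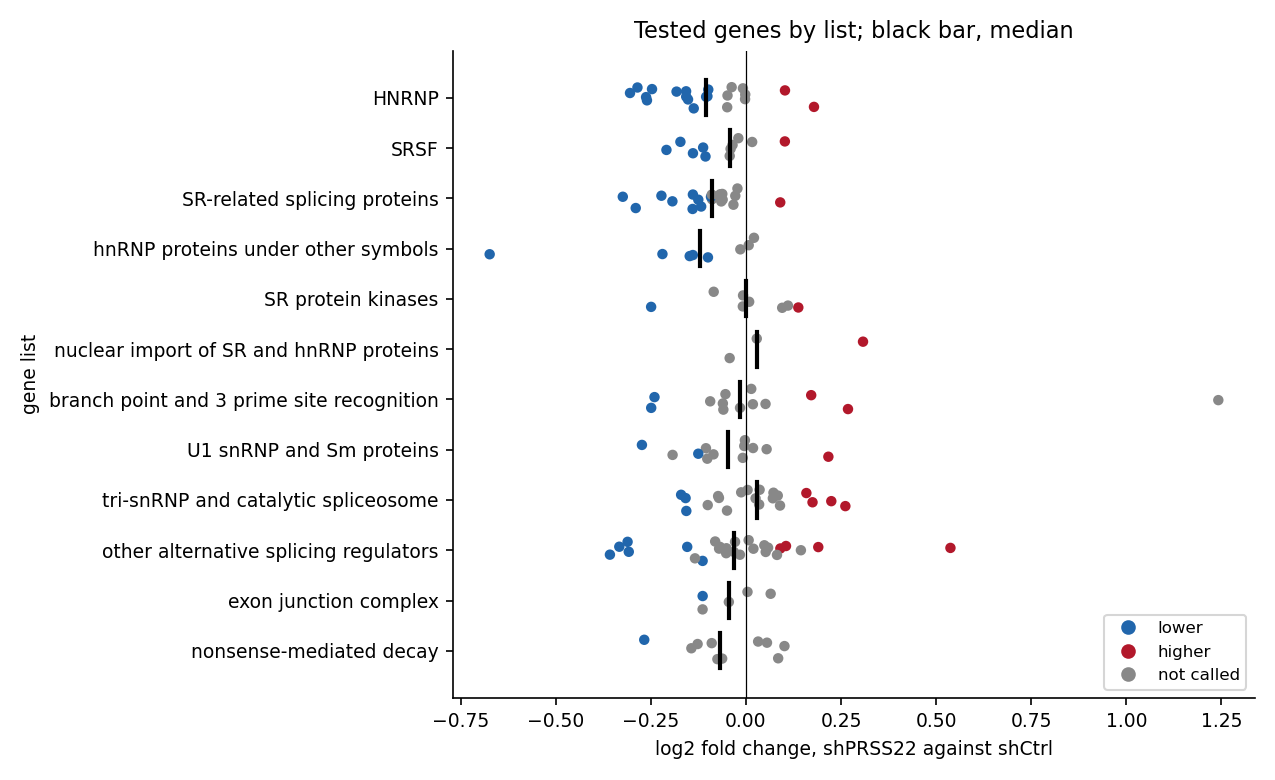
Log2 fold change in shPRSS22 against shCtrl of each tested HNRNP and SRSF gene and of the genes of 10 lists of splicing and decay factors, colored by call, with the median as a black bar. HNRNP genes and hnRNP proteins under other symbols have medians of -0.10 and -0.12, and the core spliceosome lists have medians from -0.05 to 0.03. The grey point farthest to the right is U2AF1, which was not called and whose shCtrl libraries differed widely.

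Other programmes that differ between the libraries were set beside these levels. Averaged over tested genes, and relative to the mean of the 6 libraries, the log2 level of the HNRNP genes was -0.057, -0.038 and -0.07 in shPRSS22 replicates 1 to 3, against 0.047, 0.063 and 0.056 in shCtrl replicates 1 to 3. For the SRSF genes it was -0.028, -0.02 and -0.054 in shPRSS22 replicates 1 to 3, against 0.078, 0.027 and -0.0022 in shCtrl replicates 1 to 3. A list of 25 mitosis genes stood at 0.367, 0.345 and -0.226 in shPRSS22 replicates 1 to 3, against -0.133, -0.051 and -0.302 in shCtrl replicates 1 to 3. Of these mitosis genes 10 rose (40%) and 0 fell, against 19.9% and 19.3% of all tested genes. Within shPRSS22, replicate 3 had the lowest mitosis level and also the lowest HNRNP level. Whether the 2 levels are linked was not tested. Without shPRSS22 replicate 1, the library with FABP1, SLC26A3 and CEACAM7 counts, 12 HNRNP genes fell and 2 rose, and 4 SRSF genes fell and 0 rose. Over all tested genes in that fit, 48.9% of those called were lower. The median log2 fold change there was -0.113 over HNRNP genes and -0.0657 over SRSF genes, against -0.00516 over all tested genes. Summed over the 16 listed intestinal markers in the table, TPM was 64.4 to 78.5 in shPRSS22 and 51.8 to 54.2 in shCtrl. CA2 carried most of that sum, at a mean of 57.3 TPM in shPRSS22 and 46.6 TPM in shCtrl. Summed over 14 fibroblast, immune and endothelial markers it was 27.7 to 33.4 TPM in shPRSS22 and 23.9 to 27.1 TPM in shCtrl, with PTPRC at 0 or 1 count in each library. CD68 and COL1A1 carried most of it, at means of 20.3 TPM in shPRSS22 and 17.0 TPM in shCtrl for CD68, and 8.68 TPM in shPRSS22 and 8.15 TPM in shCtrl for COL1A1. Their part in the differences was not tested.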

How the data were processed

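Poly(A) RNA of 3 shPRSS22 and 3 shCtrl libraries of HCT116 cells was sequenced by the authors. By the submitters' processing notes the tools were RSEM 1.3.1 and DESeq2 1.4.5, Bowtie2 2.3.4.3 and HISAT2 2.2.1, R 4.3.1 and FastQC 0.12.1, and the build was GRCh38.p13. Their roles are not given in the sources used here. Per the file headers, the authors deposited an estimated count and a TPM per gene and library, and their own comparison as a log2 fold change and a q-value (a p-value adjusted for multiple tests). Of the deposited estimated counts, 2081 to 2162 genes per library carried decimals, and they held 13.9% to 15.2% of the counts. Decimals can mark reads shared by near-identical genes.

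Here each estimated count was rounded to the nearest integer, and genes were tested with edgeR 4.0.16 in R 4.3.3 (TMM, filterByExpr, robust glmQLFit, glmQLFTest) over 13104 of 17269 genes, two-sided, with Benjamini-Hochberg adjustment. Standard errors are the log2 fold change divided by the square root of F, and 95% intervals are normal. Alternatives were DESeq2 1.42.0, 3 other scalings, 2 other filters, no robust fit, the replicate number as a block and leaving out each library. The fit was tested on simulated data. Library totals were 14920523 to 15466647 counts. A chi-square statistic per gene was 2.15 to 3.05 between shPRSS22 libraries and 1.80 to 1.85 between shCtrl libraries, so no pair agreed within sampling noise. Members, lists and pairs were chosen with earlier results of these data known. Named genes are PRSS22, all members, 4 fixed partners (SRPK1, CLK1, TNPO1 and TNPO3), and the strongest rises and falls (at most 2 each) in every other list above 1 CPM. SYNCRIP, PCBP1, PCBP2 and U2AF2 fall outside that rule and were named after their values were known. Marker lists for intestine, fibroblast, immune, endothelial and epithelial cells and for mitosis describe the libraries.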

Additional observations from a re-analysis of the deposited data

How the results depend on the processing

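With DESeq2, 1637 genes were lower and 1759 higher over all genes, against 2523 lower and 2603 higher in edgeR, 3 SRSF genes were lower in place of 5, 11 HNRNP genes in place of 13, and 9 genes of the splicing lists were higher in place of 14; the cause was not tested. Leaving out 1 library at a time gave 3 to 4 SRSF genes lower and 0 to 1 higher, 11 to 12 HNRNP genes lower and 1 to 2 higher, and 10 to 16 genes of the splicing lists higher, with fewer samples in each fit. PRSS22 kept a log2 fold change between -1.78 and -1.66 under every alternative. The other scalings (RLE, upper quartile and library totals), both other filters and the fit without robust estimates left the SRSF and HNRNP counts at 5 and 13 lower and 1 and 2 higher. The median log2 fold change of all genes stayed between -0.012 and -0.0019. Of all genes called, between 47.5% and 51.4% were lower under every alternative. The replicate numbers are not known to pair the cultures: deviations of same-numbered libraries correlated at 0.0194, 0.0329 and 0.0908, and not every library matched its own number best. With the replicate number as a block, 2782 genes were higher and 2747 lower, and the SRSF and HNRNP counts were unchanged at 5 and 13 lower. The number of libraries limits the precision. The members that lost a call under some alternative had log2 fold changes from -0.14 to 0.10 with all libraries. HNRNPA2B1 (-0.10) and SRSF6 (-0.11), with changes as small, kept their call under all 14 alternatives. Why calls were lost was not tested.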

Other observations

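U2AF1, which encodes the small subunit of the factor that recognises splice acceptors, stood at 75.9, 83.3 and 74.8 CPM in shPRSS22, against 50.7, 0.990 and 47.4 CPM in shCtrl. All shPRSS22 values lay above all shCtrl values, and shCtrl replicate 2 was far below the other two shCtrl libraries. The gene did not pass the threshold with all libraries (log2 fold change 1.24, SE 0.793, adjusted p = 0.3). Without shCtrl replicate 2 it did, at a log2 fold change of 0.67 (edgeR, adjusted p = 3.70e-10), and also with all libraries in the fit without robust estimates (adjusted p = 0.00603). Under the other alternatives its adjusted p was between 0.296 and 0.497. These alternatives were chosen after seeing the data. The estimated counts of U2AF1 carried decimals in all 6 libraries, which can mark reads shared by near-identical genes. Its level is therefore less certain in every library, and the part of such sharing was not tested. U2AF2, the large subunit, stood at 106, 108 and 104 CPM in shPRSS22, against 109, 103 and 103 CPM in shCtrl. HNRNPLL, which rose, and SRSF7, which fell, have start sites 149 kb apart on chromosome 2. U2AF1 and this pair were chosen after their values were seen.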
